A study of Mus musculus with 18 samples.

Results

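The comparison is between mouse cells on day 10 (D10) and day 8 (D8) of a chemical reprogramming course, read across all genes by RNA sequencing. It uses 4 of the 18 libraries of the series, 2 from D10 and 2 from D8, taken by their titles. All 4 began as fibroblasts of E13.5 embryos, strain 129XOG2, taken at passages 1 to 3, and the labels call them reprogramming intermediates. OG2 mice bear a green fluorescent reporter driven by Pou5f1 sequence. Cells of both days had been in reprogramming medium since the day after seeding, and what that medium contained is not stated in the labels. From day 4 to day 8 the medium was renewed every day and at other times every 2 days, so the day and the feeding schedule cannot be told apart. The other 14 libraries, 2 per group, are fibroblasts at day 0 (D0), days 2, 4, 6 and 12 (D2, D4, D6, D12), the resulting induced pluripotent stem cells (iPSC) and R1 embryonic stem cells (ESC). They entered the fit to estimate the spread and are given as levels beside the comparison.

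In chemical reprogramming, small molecules and growth factors in the medium replace introduced transcription factor genes. Fibroblasts lose the genes of their matrix and contractile apparatus, pass through an intermediate state that can express extraembryonic endoderm regulators such as Gata4, Gata6 and Sox17, and gain the pluripotency network in which Pou5f1 (Oct4), Sox2 and Nanog act together. Growth factor signals leave a trace in RNA through immediate early genes such as Fos and Jun, whose products form the AP-1 factor, and through feedback inhibitors such as Dusp6 and Spry4, which are induced by the kinase ERK and restrain it.

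Of 16439 genes that reached 1 FPKM in 2 or more of the 18 libraries, 470, or 2.86%, differed between D10 and D8. FPKM is the number of sequenced fragments of a transcript, divided by its length and by the library's mapped fragments. A gene counted as different when limma gave an adjusted p under 0.05 and the difference was at least 2-fold on the log2(FPKM + 1) scale, and "higher", "lower", "rose", "fell" and "called" below refer to such genes in D10 cells. On this scale the fold change of genes with low FPKM is understated. Of the 470, 400 were lower at D10 (2.43% of the genes tested) and 70 were higher (0.426%). Without the fold threshold 1722 genes passed (10.5%), 1202 lower (7.31%) and 520 higher (3.16%). Over all genes tested, the log2 fold change had a median of -0.01, with 8407 genes below 0 and 7754 above. Counts of list members below are to be read beside these shares of all genes. In bulk samples like these, fewer cells of a type and less RNA per cell cannot be told apart.

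Among the largest falls were genes of fibroblasts, and among the rises was Pou5f1. S100a4, a calcium-binding protein also known as fibroblast-specific protein, had 1.67 and 2.36 FPKM in D10 cells, against 27.9 and 31.5 FPKM in D8 cells. Thy1, a fibroblast surface glycoprotein, had 19.8 and 22.1 FPKM in D10 cells, against 123 and 127 FPKM in D8 cells. Pou5f1 had 121 and 128 FPKM in D10 cells, against 44.9 and 45.4 FPKM in D8 cells. In each of the 3 genes the days did not overlap, which also held for every called gene and for 64.3% of all genes tested, so with 2 libraries a day it adds nothing to the call.

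**Figure D1:**
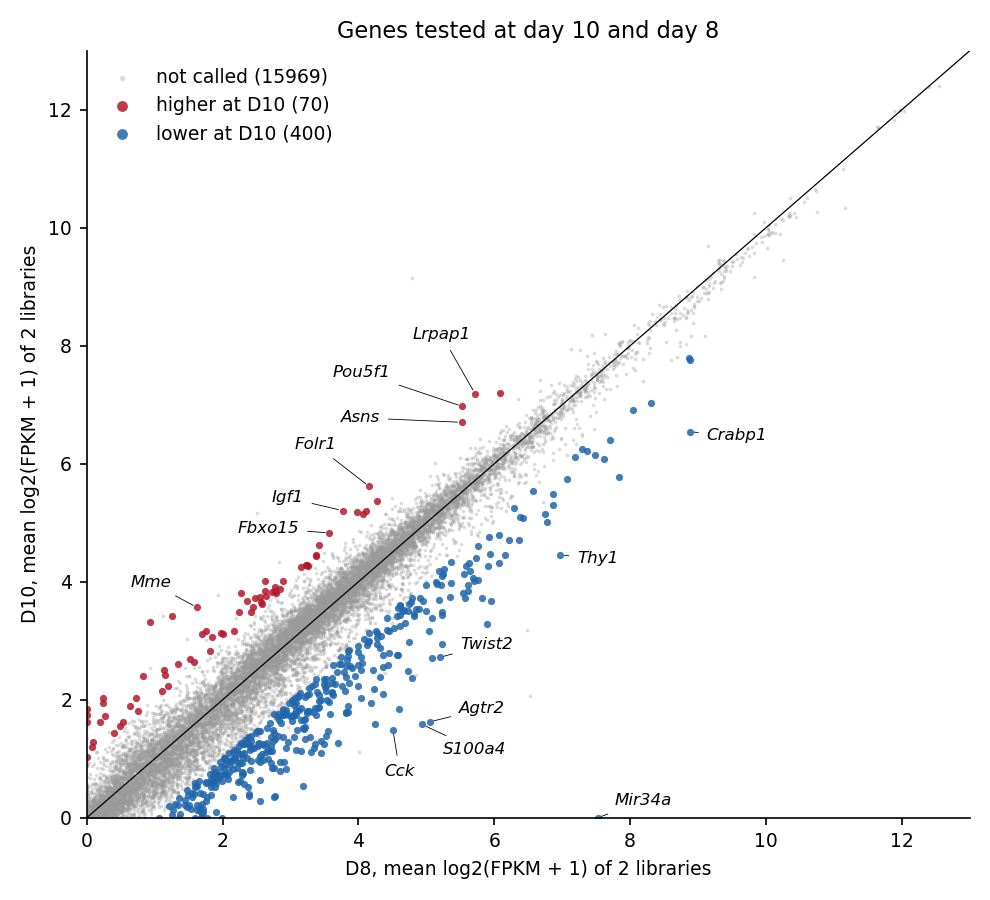
Each point is 1 of the 16439 genes tested, with the mean log2(FPKM + 1) of the 2 D10 libraries on the vertical axis and of the 2 D8 libraries on the horizontal axis; the line marks equal levels. Blue points, the 400 genes lower at D10, outnumber the red points, the 70 genes higher at D10.

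Replicates were close on both days. The median absolute difference between the 2 libraries was 0.0924 on the log2 scale at D10 and 0.0897 at D8. The fit takes 1 spread per gene from all 18 libraries, and the same difference was wider at D0 (0.280), D2 (0.243) and D4 (0.184). Whether the 2 libraries of a day are separate cultures is not given in the labels. Each p-value thus measures only how far the libraries within these groups spread, and that spread may be technical. Sequencing depth is not given in the sources used here. An estimate from the FPKM steps of low, unspliced genes was 16.5 to 17.6 M read pairs at D10 and 19 to 20.8 M at D8, at which 1 pair in a transcript of 1 kb is worth 0.0482 to 0.0608 FPKM. Genes of mitochondrial DNA took 52.3% and 51.4% of the FPKM sum at D10, against 50.2% and 52.4% at D8. As FPKM is divided by length, these are not shares of the sequenced fragments. With FPKM weighted by length, the mitochondrial share was 11.72% and 11.14% at D10, against 11.07% and 11.98% at D8.

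Markers of the cell types that such a culture could hold were checked first. The summed FPKM of 4 extraembryonic endoderm markers (Gata4, Gata6, Sox17, Foxa2) was 317 and 300.1 at D10, against 289 and 288 at D8, and that of 4 epithelial markers (Cdh1, Epcam, Krt8, Krt18) was 706 and 756 at D10, against 770 and 764 at D8. The sum of 5 fibroblast markers (Thy1, Col1a1, Col3a1, Twist1, Prrx1) was 205 and 214 at D10, against 316 and 316 at D8, and 3 of the 5 were lower. Of 5 pluripotency markers 1 rose, and their sum was 167 and 179 at D10, against 83.7 and 81.1 at D8. Nanog, which defines the pluripotent state, was at 0.160 and 0.280 FPKM at D10, against 0.217 and 0.308 FPKM at D8. Endothelial markers (Pecam1, Cdh5, Kdr, Tek) summed to 16.8 and 16.5 FPKM at D10, against 26.7 and 25.0 at D8, with no member called. Stratified epithelium markers (Krt5, Krt14, Trp63) summed to 6.21 and 7.72 FPKM at D10, against 9.01 and 9.79 at D8, with none called. Outside those markers, the keratinocyte genes Krtdap and Krt13 and 4 of 8 small proline-rich (Sprr) genes were lower, the last being close copies whose reads may be shared; Krt13 had 11.7 and 11.7 FPKM in D10 cells, against 27.5 and 25.5 FPKM in D8 cells (limma, adjusted p = 0.00370). Neural markers (Tubb3, Sox1, Pax6, Dcx) summed to 0.944 and 0.690 FPKM at D10, against 3.601 and 3.36 at D8, with Dcx at 0 throughout and 1 of the 4 lower. Of 4 myeloid markers (Ptprc, Csf1r, C1qa, Tyrobp) and 4 striated muscle markers (Tnnt2, Actc1, Myl1, Myog), C1qa and Myog were at 0 and the others under 1 FPKM in all 4 libraries. Longer lists of those cells were not near 0: 11 myeloid genes summed to 17.04 and 17.997 FPKM at D10, against 17.94 and 17.56 at D8, with none called, and 10 striated muscle genes summed to 3.54 and 3.01 FPKM at D10, against 8.95 and 7.46 at D8, with 1 lower (Acta1). The part of any such cells in the results below was not tested.

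Promoter sequences are shown for 5 genes that fell and that hold a well-known motif close to a transcription start. They were picked after their values were seen, so the matches support nothing about the fall. In 3 of them, a run of matrix metalloproteinase genes on chromosome 9, the capitals mark TGACTCA or its reverse complement, the consensus site of AP-1. In the immediate early gene Egr2 and the actin gene Acta1 the capitals mark a CArG box, the site of serum response factor. Each run is the 150 bases just before a transcription start in RefSeq (GRCm38.p6), on the gene's strand. Where a gene had several starts, the first with a match was taken. In Egr2 the start used lies inside the gene, which is annotated from position 67535475.
Mmp3 (chr9:7445672-7445821, plus strand): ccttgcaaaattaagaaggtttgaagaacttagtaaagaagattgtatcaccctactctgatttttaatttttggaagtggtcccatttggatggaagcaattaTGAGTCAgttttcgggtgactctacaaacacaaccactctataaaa
Mmp10 (chr9:7502192-7502341, plus strand): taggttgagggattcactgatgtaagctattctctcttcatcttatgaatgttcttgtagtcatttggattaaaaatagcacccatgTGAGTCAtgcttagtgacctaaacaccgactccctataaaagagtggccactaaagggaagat
Mmp13 (chr9:7272364-7272513, plus strand): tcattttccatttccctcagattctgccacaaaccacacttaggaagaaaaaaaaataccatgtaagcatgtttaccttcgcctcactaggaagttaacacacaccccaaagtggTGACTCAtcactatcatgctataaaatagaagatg
Egr2 (chr10:67537416-67537565, plus strand): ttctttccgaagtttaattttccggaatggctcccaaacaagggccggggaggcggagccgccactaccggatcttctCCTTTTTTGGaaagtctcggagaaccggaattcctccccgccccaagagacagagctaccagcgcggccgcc
Acta1 (chr8:123894776-123894925, minus strand): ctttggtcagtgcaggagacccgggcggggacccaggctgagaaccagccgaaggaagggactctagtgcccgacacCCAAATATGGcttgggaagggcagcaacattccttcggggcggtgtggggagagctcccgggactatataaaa
The first base of the AP-1 match lay 46, 63 and 35 bases before the start in Mmp3, Mmp10 and Mmp13. Of 32841 promoters in the table, 2.84% hold TGACTCA on either strand in these 150 bases and 0.917% hold a CArG box. A match is a description of the letters and shows no binding. The table holds a promoter for 304 of the 420 called protein-coding genes (72.4%). The share of these with either motif was not computed, so no rate stands beside the 5 picked genes.

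Genes of fibroblast matrix and the contractile apparatus formed one of the largest groups that fell. Of 25 tested members of that list, 12 were lower at D10, against 2.43% of all genes, and the median log2 fold change was -1.09. S100a4, whose values are given above, changed by a log2 fold change of -3.36 ± 0.223 (SE; limma, adjusted p = 2.36e-06), and Thy1 by -2.52 ± 0.151 (SE; limma, adjusted p = 1.17e-06). Col6a2, a chain of the microfibrillar type VI collagen, had 11.4 and 12.95 FPKM in D10 cells, against 47.0 and 45.7 FPKM in D8 cells (limma, adjusted p = 0.00171). Lum, a small proteoglycan of collagen fibrils, had 10.23 and 10.3 FPKM in D10 cells, against 35.8 and 37.1 FPKM in D8 cells (limma, adjusted p = 0.0127). Tagln, an actin-binding protein of contractile cells, had 2.73 and 2.99 FPKM in D10 cells, against 16.4 and 18.1 FPKM in D8 cells (limma, adjusted p = 0.0170). Col6a2 and Lum stand for the matrix in this list and Tagln for the contractile apparatus. Vim, the intermediate filament of mesenchymal cells, remained abundant with 72.8 and 74.2 FPKM in D10 cells, against 162 and 165 FPKM in D8 cells, although it was called. Fbn1 and Eln, which build elastic fibres, Loxl1, which crosslinks them, and Myl9 and Tpm2, of the contractile apparatus, were the other members lower beside Col6a1. Acta2, smooth muscle actin, had 4.71 and 4.26 FPKM in D10 cells, against 20.9 and 19.2 FPKM in D8 cells, and did not pass (limma, adjusted p = 0.0591). Under another setting of the fit it did pass (limma, adjusted p = 3.05e-06), so the miss depends on the setting. Lum and Tagln lost their call whichever of the 4 libraries was left out. Their log2 fold changes then stayed at -1.76 to -1.71 for Lum and -2.31 to -2.17 for Tagln. Tpm2 lost its call without D10 replicate 2 at a log2 fold change of -0.99. With a pseudocount of 5 the list held 7 lower members.

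Type I and type III collagen genes were not called, nor was decorin. Col1a1, the main chain of type I collagen, had 94.8 and 99.6 FPKM in D10 cells, against 97.1 and 93.6 FPKM in D8 cells. Col3a1, of type III collagen, had 75.0 and 77.6 FPKM in D10 cells, against 49.7 and 48.4 FPKM in D8 cells, and here the D10 values were the larger ones. Dcn, the proteoglycan decorin, had 43.4 and 46.2 FPKM in D10 cells, against 69.8 and 72.9 FPKM in D8 cells. Over all collagen genes, a family picked after its values were seen, 5 of 33 were lower, and 3 of these 5 were the chains of type VI. Col6a1 had 19.5 and 22.3 FPKM in D10 cells, against 71.8 and 68.7 FPKM in D8 cells. Col6a3 had 12.12 and 12.6 FPKM in D10 cells, against 43.8 and 35.9 FPKM in D8 cells. In the D0 fibroblasts the means of Col6a1 and Col6a3, 47.3 and 12.95 FPKM, were below those at D8. That of Col6a2, 58.4 FPKM, was above its D8 mean. The median of all genes tested was also lower at D0 (1.71 and 2.47 FPKM) than at D8 (6.13 and 5.97 FPKM). The remaining 2 of the 5 lower collagen genes were Col18a1, of basement membranes, and the low-level fibrillar chain Col5a3. Col5a3 had 0.434 and 0.258 FPKM in D10 cells, against 1.97 and 1.89 FPKM in D8 cells. Col6a1 lost its call without D10 replicate 1 or D8 replicate 1, Col6a3 without D8 replicate 1 and Col18a1 without D10 replicate 1, with limma adjusted p up to 0.0589, 0.0544 and 0.0503.

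Transcription factors of mesenchyme fell in part: 3 of 12 were lower, with a list median of -0.47. Twist2, a basic helix-loop-helix factor of mesenchyme, had 5.61 and 5.57 FPKM in D10 cells, against 35.7 and 35.7 FPKM in D8 cells, a log2 fold change of -2.48 ± 0.149 (SE; limma, adjusted p = 1.17e-06). Its paralog Twist1 had 12.18 and 11.6 FPKM in D10 cells, against 34.7 and 36.1 FPKM in D8 cells (limma, adjusted p = 0.00486). Prrx1, a homeobox factor of limb and facial mesenchyme, had 3.32 and 3.46 FPKM in D10 cells, against 11.6 and 10.9 FPKM in D8 cells (limma, adjusted p = 1.86e-04). The genes of 3 other repressors of the E-cadherin gene Cdh1, a role Twist1 shares, were not called. Snai1 had 14.04 and 13.9 FPKM in D10 cells, against 12.9 and 13.4 FPKM in D8 cells. Snai2 had 2.03 and 1.74 FPKM in D10 cells, against 3.99 and 4.77 FPKM in D8 cells, and passed the adjusted p (limma, adjusted p = 0.0396) at a log2 fold change of -0.90, under the threshold. Zeb2 had 2.72 and 3.05 FPKM in D10 cells, against 4.04 and 3.43 FPKM in D8 cells. Their target was not called either. Cdh1 had 120.2 and 128 FPKM in D10 cells, against 104 and 94.9 FPKM in D8 cells (limma, adjusted p = 0.0643). Of 25 epithelial junction and keratin genes 1 changed, the P-cadherin gene Cdh3, which was lower with 1.31 and 1.34 FPKM in D10 cells, against 4.63 and 4.84 FPKM in D8 cells (limma, adjusted p = 3.70e-04).

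Proteases of the stroma were among the genes with the largest falls. Of 14 matrix metalloproteinase genes, a family picked after its values were seen, 4 were lower. Mmp3 (stromelysin 1), one of the genes whose promoter is printed above, had 2.63 and 2.52 FPKM in D10 cells, against 23.2 and 23.2 FPKM in D8 cells, a log2 fold change of -2.76 ± 0.129 (SE; limma, adjusted p = 3.66e-07). Mmp10 (stromelysin 2) had 1.47 and 1.36 FPKM in D10 cells, against 11.8 and 12.17 FPKM in D8 cells (limma, adjusted p = 6.49e-05). Mmp13 (collagenase 3) had 1.09 and 0.886 FPKM in D10 cells, against 5.48 and 5.21 FPKM in D8 cells (limma, adjusted p = 0.00313). These 3 genes hold the printed AP-1 matches. Mmp2 (gelatinase A), far more abundant, had 38.3 and 38.4 FPKM in D10 cells, against 117 and 115 FPKM in D8 cells (limma, adjusted p = 0.00725), and it lost its call whichever library was left out (up to 0.0524). The membrane-bound Mmp14 had 33.7 and 38.3 FPKM in D10 cells, against 64.0 and 58.4 FPKM in D8 cells, and was not called. Mmp7 (matrilysin), a protease of epithelia, had 11.3 and 10.03 FPKM in D10 cells, against 5.999 and 6.51 FPKM in D8 cells, and was not called either, so the D10 values of this member were the larger ones.

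IGF-binding proteins, which hold insulin-like growth factors outside the cell, were lower in 5 of 7 genes, again a family picked after its values were seen. Igfbp3 had 11.5 and 12.002 FPKM in D10 cells, against 60.1 and 61.2 FPKM in D8 cells, a log2 fold change of -2.27 ± 0.271 (SE; limma, adjusted p = 1.83e-04). Igfbp7 had 24.9 and 25.1 FPKM in D10 cells, against 81.1 and 81.5 FPKM in D8 cells (limma, adjusted p = 4.17e-04). Igfbp2 had 19.4 and 22.9 FPKM in D10 cells, against 56.8 and 63.5 FPKM in D8 cells (limma, adjusted p = 8.21e-06). Igfbp5 and Igfbp6 were lower as well, and Igfbp6 lost its call without D8 replicate 2 at a log2 fold change of -0.97. Igfbp4 had 27.0 and 27.1 FPKM in D10 cells, against 52.9 and 52.6 FPKM in D8 cells, and was not called. The ligand Igf1 moved the opposite way and was higher, with 37.0 and 34.9 FPKM in D10 cells, against 12.3 and 12.9 FPKM in D8 cells, a log2 fold change of 1.44 ± 0.263 (SE; limma, adjusted p = 0.00361). The fetal growth factor Igf2, the 1 called member among 22 imprinted genes, had 195 and 248 FPKM in D10 cells, against 381 and 569.5 FPKM in D8 cells (limma, adjusted p = 0.0347). Its replicates lay far apart, and the call was lost without D10 replicate 1, D10 replicate 2 or D8 replicate 2 (limma adjusted p up to 0.298).

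Prostaglandin synthesis genes fell too, 5 of 14 symbols that begin with Ptg, chosen after their values were seen. Ptgs2 (COX-2), the inducible enzyme that commits arachidonic acid to prostaglandins, had 1.43 and 1.503 FPKM in D10 cells, against 10.15 and 9.69 FPKM in D8 cells, a log2 fold change of -2.15 ± 0.228 (SE; limma, adjusted p = 7.39e-05). Ptgs1 (COX-1), its constitutive relative, had 1.23 and 1.54 FPKM in D10 cells, against 9.19 and 9.43 FPKM in D8 cells (limma, adjusted p = 4.92e-06). Ptges, a synthase of prostaglandin E2, had 14.2 and 15.8 FPKM in D10 cells, against 35.2 and 33.4 FPKM in D8 cells (limma, adjusted p = 4.26e-05). The other 2 were Ptgis, the prostacyclin synthase, and Ptgir, the prostacyclin receptor, which had 0.223 and 0 FPKM in D10 cells, against 1.92 and 1.86 FPKM in D8 cells.

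**Figure D2:**
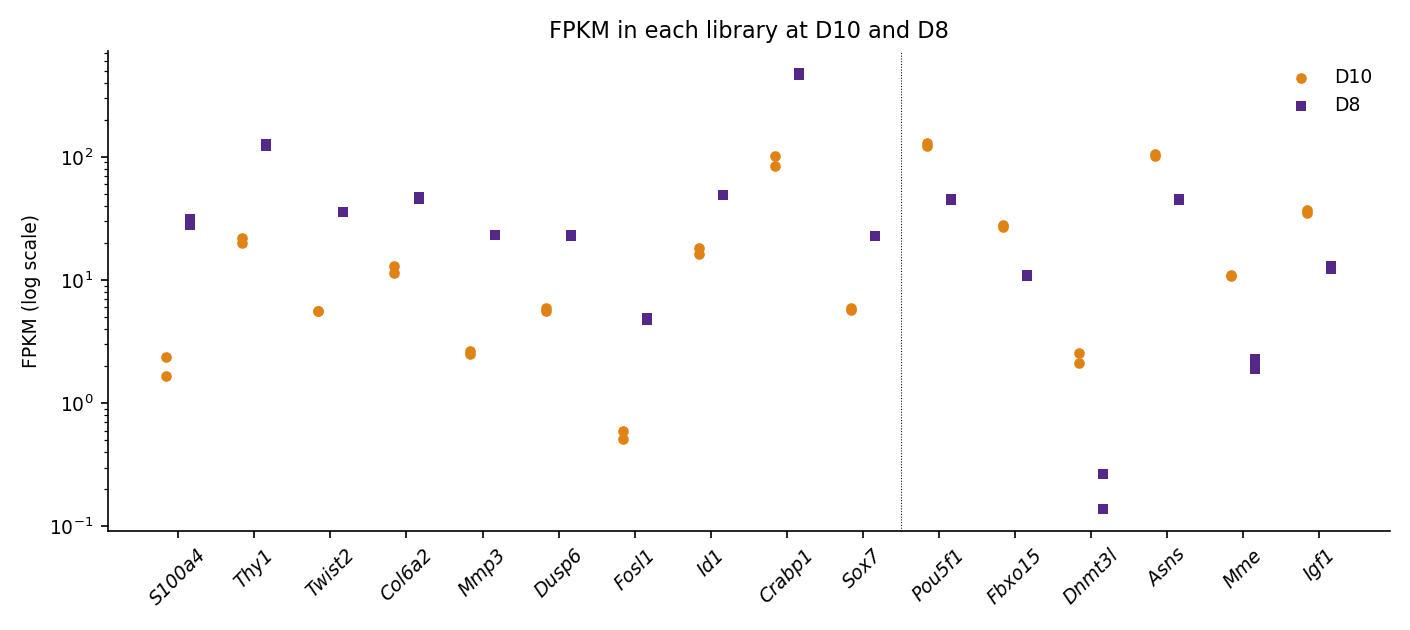
FPKM on a log scale in each of the 2 D10 libraries (circles, left) and the 2 D8 libraries (squares, right) for 10 genes lower at D10, left of the dotted line, and 6 genes higher at D10. Both D10 values of Thy1, 19.8 and 22.1 FPKM, lie below both D8 values, 123 and 127 FPKM.

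Immediate early genes had the largest share of lower members among the lists with 10 or more tested genes, leaving aside families and mitochondrial tRNA genes grouped after their values were seen. The lists were themselves chosen with earlier results of these data known, so this rank only describes them. Of 18 tested, 9 were lower, against 2.43% of all genes. Each of the 18 had a log2 fold change below 0 (median -1.06), as had 8407 of all 16439 genes. Fosl1, a Fos family subunit of AP-1, had 0.600 and 0.513 FPKM in D10 cells, against 4.90 and 4.78 FPKM in D8 cells (limma, adjusted p = 0.00365). Jun, the subunit that pairs with Fos proteins, had 43.5 and 44.4 FPKM in D10 cells, against 116 and 114 FPKM in D8 cells, a log2 fold change of -1.37 ± 0.213 (SE; limma, adjusted p = 0.00121). Atf3, a stress-induced factor of the same class, had 8.51 and 10.5 FPKM in D10 cells, against 31.2 and 34.5 FPKM in D8 cells (limma, adjusted p = 6.50e-04). Fos itself, the best known of the class, was not called in the main fit. It had 39.2 and 41.0 FPKM in D10 cells, against 105 and 103 FPKM in D8 cells, and missed the threshold (limma, adjusted p = 0.0620). Its log2 fold change was -1.35, so only the adjusted p fell short. Over other settings of the fit its limma adjusted p ran from 4.94e-06 to 0.268, so the miss depends on the setting. The zinc finger genes Egr1, Egr2 and Egr3, the phosphatase gene Dusp1 and Ier3, an early response gene, were lower too. Egr1 had 18.1 and 18.4 FPKM in D10 cells, against 47.6 and 46.4 FPKM in D8 cells (limma, adjusted p = 0.00321). Egr2, whose promoter with a CArG box is printed above, had 0.666 and 0.283 FPKM in D10 cells, against 2.16 and 2.03 FPKM in D8 cells (limma, adjusted p = 0.0210), a call lost without D10 replicate 2, D8 replicate 1 or D8 replicate 2 (up to 0.176). Fosb, the ninth, lost its call without D10 replicate 1 at a log2 fold change of -0.94. Acta1, the other gene with a printed CArG box, encodes skeletal muscle actin and had 0.338 and 0.224 FPKM in D10 cells, against 2.55 and 2.30 FPKM in D8 cells (limma, adjusted p = 2.10e-04).

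Feedback inhibitors of ERK were lower as well. Of 17 genes of FGF signalling and ERK feedback, 3 were lower and 1 was higher, with a median of -0.87. Dusp6, a phosphatase of ERK, had 5.58 and 5.98 FPKM in D10 cells, against 23.2 and 22.6 FPKM in D8 cells, a log2 fold change of -1.82 ± 0.220 (SE; limma, adjusted p = 2.07e-04). Dusp5, its nuclear relative, had 1.29 and 1.10 FPKM in D10 cells, against 5.50 and 5.42 FPKM in D8 cells (limma, adjusted p = 1.97e-04). Spry4 had 3.24 and 3.16 FPKM in D10 cells, against 7.81 and 7.53 FPKM in D8 cells (limma, adjusted p = 0.0138), a call lost whichever library was left out (up to 0.0887). The higher member was a ligand, Fgf10, with 10.9 and 10.9 FPKM in D10 cells, against 4.83 and 4.16 FPKM in D8 cells (limma, adjusted p = 0.00489, and 0.0522 without D8 replicate 2). Its receptor gene Fgfr2 had 25.3 and 29.4 FPKM in D10 cells, against 25.5 and 25.4 FPKM in D8 cells, and was not called. The count of lower members was 6 with quantile normalization, 5 with a pseudocount of 0.1 and 1 with a pseudocount of 5. Ccnd1, the G1 cyclin D1 and one of 2 lower members among 18 Wnt targets, had 18.8 and 18.9 FPKM in D10 cells, against 68.2 and 64.1 FPKM in D8 cells, a log2 fold change of -1.76 ± 0.103 (SE; limma, adjusted p = 1.06e-06). The other was Lef1, a nuclear effector of Wnt signals, with 1.37 and 1.09 FPKM in D10 cells, against 3.34 and 3.66 FPKM in D8 cells, and its call was lost whichever library was left out (limma adjusted p up to 0.145).

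Ligands, an inhibitor and targets of the BMP and TGF-beta pathways fell. Of 24 tested genes, 10 were lower, with a median of -0.89. Among the ligands, Inhbb, the beta B chain of activins and inhibins, had 14.1 and 14.8 FPKM in D10 cells, against 47.8 and 48.5 FPKM in D8 cells, a log2 fold change of -1.67 ± 0.175 (SE; limma, adjusted p = 6.78e-05). Bmp7 had 1.66 and 2.14 FPKM in D10 cells, against 8.28 and 8.34 FPKM in D8 cells (limma, adjusted p = 0.0185). Grem1, a secreted inhibitor of BMPs, had 0.651 and 0.925 FPKM in D10 cells, against 6.56 and 6.80 FPKM in D8 cells (limma, adjusted p = 8.41e-05). Both kinds, ligand and inhibitor, were thus lower. Among the targets, Id1, which holds back differentiation factors, had 16.2 and 18.3 FPKM in D10 cells, against 48.8 and 49.0 FPKM in D8 cells (limma, adjusted p = 2.25e-04). Id3, of the same family, had 10.6 and 13.9 FPKM in D10 cells, against 27.8 and 30.2 FPKM in D8 cells (limma, adjusted p = 0.00171). Tgfbi, a matrix protein induced by TGF-beta, had 2.07 and 2.79 FPKM in D10 cells, against 8.59 and 8.35 FPKM in D8 cells (limma, adjusted p = 9.44e-04). Bmp2, Tgfb2, Inhba and Id2 were the other lower members. Bmp4 had 4.13 and 4.35 FPKM in D10 cells, against 8.80 and 7.66 FPKM in D8 cells, and was not called. Bmp7, Tgfb2, Inhba and Id2 lost their call whichever library was left out (limma adjusted p up to 0.126, 0.0746, 0.103 and 0.259), and Bmp2 without D10 replicate 1 or D8 replicate 1 (up to 0.0733). The list then held 5 lower members without D10 replicate 1, 6 without D10 replicate 2, 5 without D8 replicate 1, 6 without D8 replicate 2, and 4 with a pseudocount of 5.

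**Figure D3:**
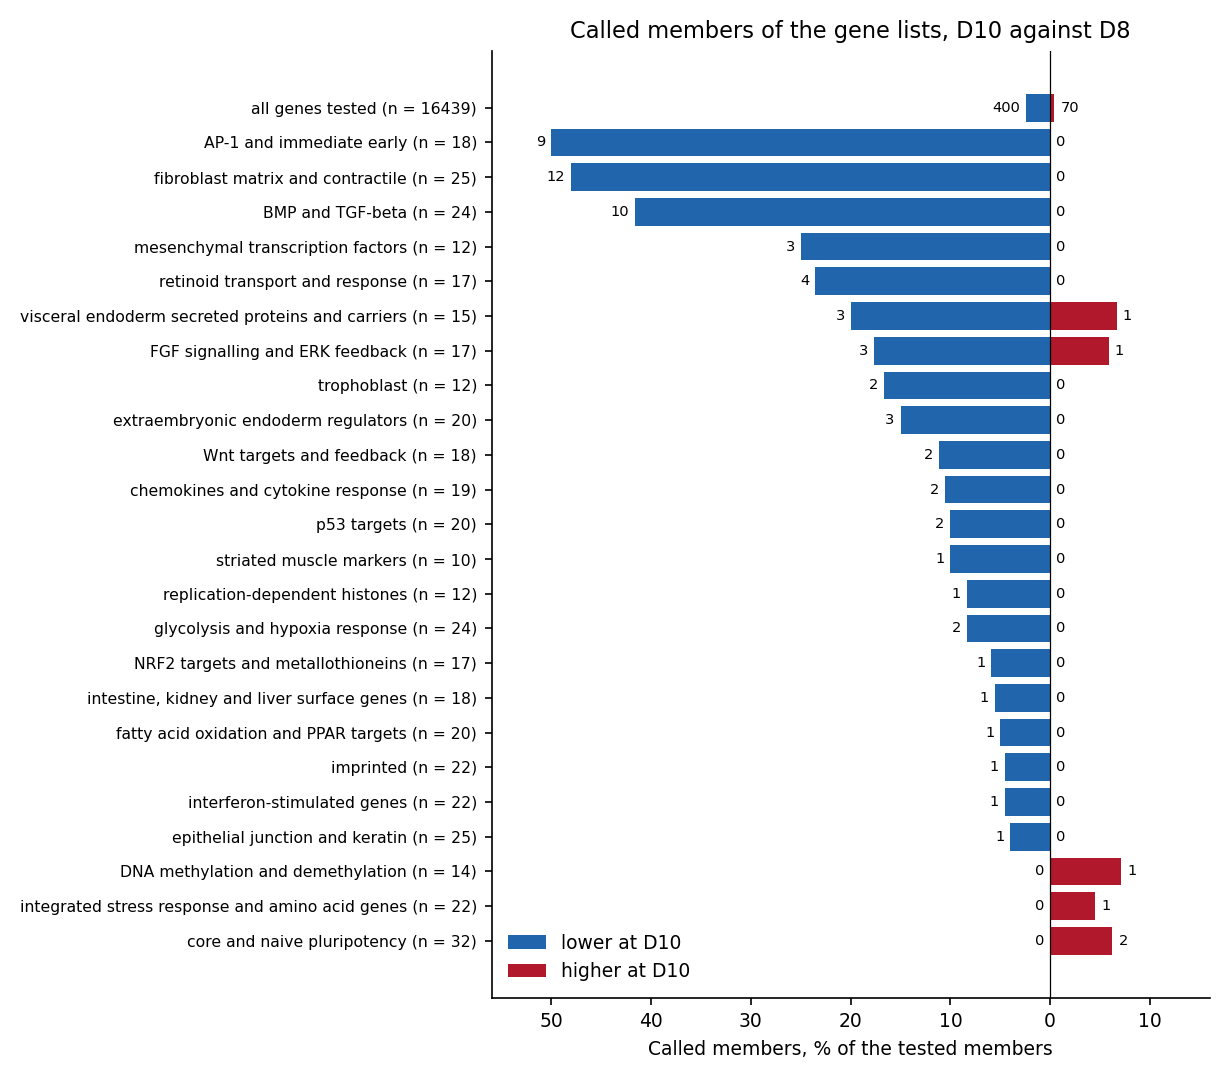
Share of the tested members of each gene list that was lower (blue, to the left) or higher (red, to the right) at D10 than at D8, for lists with 10 or more tested members and at least 1 call; numbers beside the bars count genes and n is the number tested. The top row gives all genes, with 400 lower and 70 higher of 16439, and the largest blue bars are the immediate early genes (9 of 18), fibroblast matrix (12 of 25) and BMP and TGF-beta (10 of 24).

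Of 17 genes that handle or answer to retinoids, the derivatives of vitamin A, 4 were lower, with a median of -0.41. Crabp1, which binds retinoic acid in the cell, had 84.1 and 101 FPKM in D10 cells, against 459 and 482 FPKM in D8 cells, a log2 fold change of -2.34 ± 0.128 (SE; limma, adjusted p = 9.13e-07). Rbp4, the serum retinol carrier, had 2.87 and 2.24 FPKM in D10 cells, against 7.22 and 8.29 FPKM in D8 cells (limma, adjusted p = 4.70e-04). Both proteins are carriers, one inside the cell and one in blood. Cyp26b1, an enzyme that breaks retinoic acid down, had 19.8 and 20.5 FPKM in D10 cells, against 52.3 and 51.5 FPKM in D8 cells (limma, adjusted p = 0.0121), a call lost whichever library was left out (up to 0.0795). Its paralog Cyp26a1 had 175 and 192 FPKM in D10 cells, against 168 and 173 FPKM in D8 cells, and was not called. Stra6, the retinol uptake receptor, had 65.5 and 72.2 FPKM in D10 cells, against 89.3 and 86.8 FPKM in D8 cells, and was not called.

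Gata4, Gata6, Sox17 and Foxa2, regulators of extraembryonic endoderm, were not called. Gata4 had 111 and 119 FPKM in D10 cells, against 113 and 112 FPKM in D8 cells. Sox17 had 136 and 112 FPKM in D10 cells, against 125 and 122 FPKM in D8 cells, and here the days overlapped. Gata6 had 49.9 and 50.2 FPKM in D10 cells, against 34.7 and 36.02 FPKM in D8 cells. Foxa2 had 20.02 and 19.3 FPKM in D10 cells, against 16.03 and 17.5 FPKM in D8 cells, with both D10 values above both D8 values, as in Gata6. Among 20 regulators and products of that lineage 3 were lower, while the list median was 0.26. Sox7, a Sox factor of the same subgroup as Sox17, had 5.66 and 5.91 FPKM in D10 cells, against 22.9 and 22.6 FPKM in D8 cells, a log2 fold change of -1.81 ± 0.225 (SE; limma, adjusted p = 2.48e-04). Amn, a subunit of the cubilin uptake receptor, had 3.12 and 3.01 FPKM in D10 cells, against 7.43 and 7.28 FPKM in D8 cells (limma, adjusted p = 8.13e-04). Plat, tissue plasminogen activator, had 7.43 and 9.88 FPKM in D10 cells, against 23.6 and 23.4 FPKM in D8 cells (limma, adjusted p = 0.0259), a call lost whichever library was left out (up to 0.187). They differ in kind: a transcription factor, a receptor subunit and a secreted protease. The basement membrane chain Col4a1, a main product of parietal endoderm, had 793 and 851 FPKM in D10 cells, against 589.7 and 547 FPKM in D8 cells, and was not called.

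Secreted proteins and carriers of visceral endoderm, the layer that feeds the early embryo, were split: of 15, 3 were lower and 1 was higher. Apoa1, the main protein of high-density lipoprotein, had 1.54 and 1.67 FPKM in D10 cells, against 8.999 and 12.17 FPKM in D8 cells (limma, adjusted p = 8.26e-06). Apoa2, another protein of that particle, had 6.94 and 8.56 FPKM in D10 cells, against 2.91 and 3.17 FPKM in D8 cells (limma, adjusted p = 0.00280), a rise that fell short of 2-fold without D10 replicate 2, at a log2 fold change of 0.98. The other lower members were Rbp4 and Amn. The endocytic receptor megalin, Lrp2, had 17.4 and 17.0 FPKM in D10 cells, against 11.6 and 10.6 FPKM in D8 cells; it passed the adjusted p (limma, adjusted p = 0.00114) at a log2 fold change of 0.59, under the threshold. Lrpap1, the chaperone that escorts receptors of the megalin family to the surface, was higher with 138 and 152 FPKM in D10 cells, against 51.3 and 51.8 FPKM in D8 cells, a log2 fold change of 1.47 ± 0.118 (SE; limma, adjusted p = 9.03e-06). The chaperone and its receptor thus both had larger values at D10; whether their folds differ was not tested.

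Of 32 core and naive pluripotency genes 2 rose, beside 0.426% of all genes, and the list median was 0.21. Pou5f1 (chr17:35506018-35510772, plus strand, GRCm38), whose values are given above, changed by a log2 fold change of 1.45 ± 0.0894 (SE; limma, adjusted p = 1.50e-06). Its mean was 543 FPKM at D12, 939.9 FPKM in iPSC and 898 FPKM in ESC, so D10 cells were far below the stem cells. Fbxo15, an F-box gene used as a reporter of pluripotency, had 27.8 and 27.0 FPKM in D10 cells, against 10.9 and 10.9 FPKM in D8 cells (limma, adjusted p = 8.26e-06). Without the fold threshold 12 members were higher and 3 lower, beside 3.16% and 7.31% of all genes. Dppa5a, an RNA-binding protein of stem cells, had 295 and 282 FPKM in D10 cells, against 171 and 172 FPKM in D8 cells (limma, adjusted p = 0.00303). Lin28a, which blocks maturation of let-7, had 14.96 and 14.3 FPKM in D10 cells, against 8.49 and 8.92 FPKM in D8 cells (limma, adjusted p = 3.98e-04). Dppa2, an activator of early embryo genes, had 4.08 and 4.57 FPKM in D10 cells, against 1.86 and 1.82 FPKM in D8 cells (limma, adjusted p = 6.45e-05). These 3 were among the 12, each at under 2-fold on this scale. With a pseudocount of 0.1 the list held 5 higher members.

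Sox2 and Nanog were not higher. Sox2 had 1.94 and 2.38 FPKM in D10 cells, against 4.03 and 4.57 FPKM in D8 cells, and it passed the adjusted p in the downward direction (limma, adjusted p = 0.0244) at a log2 fold change of -0.75. Nanog had 0.160 and 0.280 FPKM in D10 cells, against 0.217 and 0.308 FPKM in D8 cells, and its days overlapped. In iPSC the means were 246 FPKM for Sox2 and 274 FPKM for Nanog, so both genes were near the bottom of their range on both days. Tdgf1, a Nodal co-receptor, had 35.1 and 33.6 FPKM in D10 cells, against 51.0 and 52.8 FPKM in D8 cells, and passed the adjusted p downward as well (limma, adjusted p = 0.00153). Klf4 had 69.7 and 76.1 FPKM in D10 cells, against 103 and 104 FPKM in D8 cells, and was not called. Dnmt3l, the cofactor of de novo DNA methylation and the 1 called member among 14 genes of DNA methylation, was higher with 2.54 and 2.12 FPKM in D10 cells, against 0.138 and 0.267 FPKM in D8 cells, a log2 fold change of 1.47 ± 0.154 (SE; limma, adjusted p = 6.80e-05). The maintenance enzyme Dnmt1 had 25.3 and 26.3 FPKM in D10 cells, against 24.1 and 21.9 FPKM in D8 cells, and was not called. Zscan4c, a marker of the 2-cell-like state, was listed at 0 in the 4 libraries; of 12 genes of that state limma called 0, with 0 at an unadjusted p under 0.05.

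**Figure D4:**
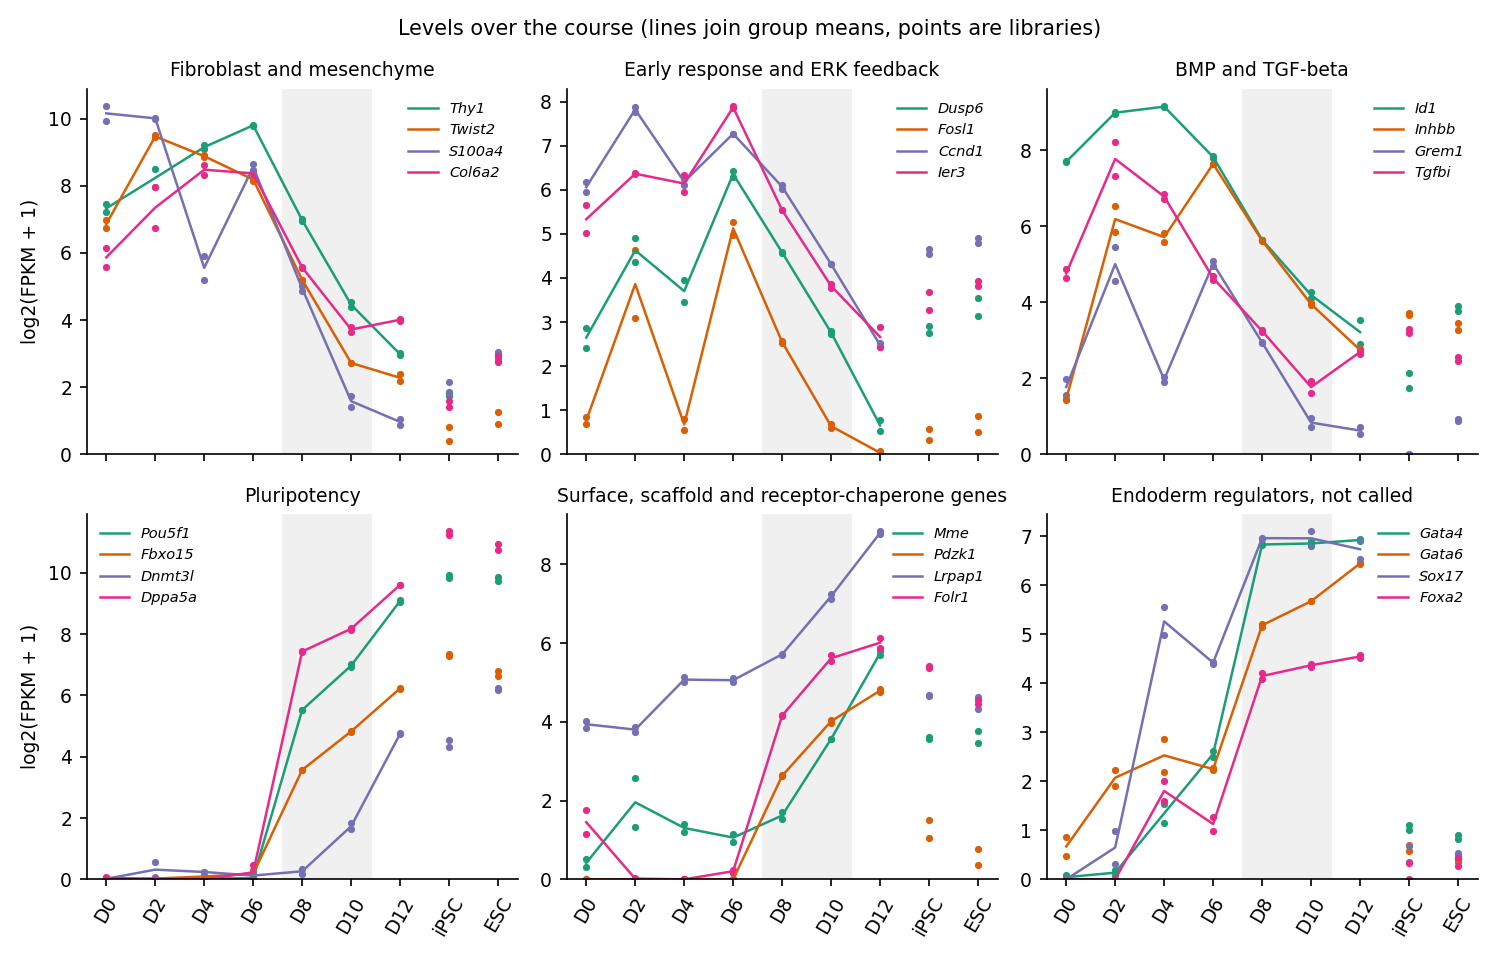
Log2(FPKM + 1) over the course for 24 genes in 6 groups; points are single libraries, lines join the means of consecutive days, iPSC and ESC stand apart on the right, and the grey band holds D8 and D10. The fibroblast, early response and BMP genes shown are lower at D10 than at D8, Pou5f1, Fbxo15 and Dnmt3l are higher, and the 4 endoderm regulators, which were not called, stay near their D8 level or slightly above it.

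Beside Pou5f1, Fbxo15, Igf1 and Lrpap1, the 15 largest rises held surface, scaffold and immune proteins. The 15 were taken from called genes with a mean of at least 5 FPKM over the 4 libraries, predicted-gene and RIKEN names left out. Mme (neprilysin), a peptidase of kidney and intestinal brush borders, had 10.9 and 10.8 FPKM in D10 cells, against 1.90 and 2.27 FPKM in D8 cells, a log2 fold change of 1.94 ± 0.282 (SE; limma, adjusted p = 7.59e-04). Pdzk1, a scaffold of apical transporters, had 14.8 and 15.6 FPKM in D10 cells, against 5.12 and 5.25 FPKM in D8 cells (limma, adjusted p = 8.47e-05). Pdzd3, a related scaffold, had 11.7 and 12.97 FPKM in D10 cells, against 4.24 and 4.96 FPKM in D8 cells (limma, adjusted p = 2e-05). Both scaffolds and the peptidase are known from the apical face of absorbing epithelia. Folr1, a folate receptor, had 50.5 and 45.7 FPKM in D10 cells, against 16.8 and 16.9 FPKM in D8 cells (limma, adjusted p = 1.05e-04). C3, the central complement component, had 7.65 and 7.80 FPKM in D10 cells, against 2.89 and 2.95 FPKM in D8 cells (limma, adjusted p = 6.42e-06). Psmb9, a subunit of the immunoproteasome, had 11.9 and 12.96 FPKM in D10 cells, against 4.69 and 5.02 FPKM in D8 cells (limma, adjusted p = 6.57e-05). The membrane proteins Tmem116 and Smim1 were also among the 15; Smim1 lost its call without D10 replicate 1, at a log2 fold change of 0.98.

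A list of 18 intestine, kidney and liver surface genes held no higher member. The lower one was the sulfate transporter Slc13a4, with 3.997 and 3.78 FPKM in D10 cells, against 13.995 and 13.2 FPKM in D8 cells (limma, adjusted p = 5.21e-06). S100g, an intestinal calcium carrier, had 3677 and 3576 FPKM in D10 cells, against 3702 and 3824 FPKM in D8 cells, and was not called. The water channel Aqp8 had 394 and 423 FPKM in D10 cells, against 481 and 497 FPKM in D8 cells, and was not called. Aqp1, a water channel outside that list and among the 15 largest falls, had 8.27 and 9.15 FPKM in D10 cells, against 59.7 and 57.1 FPKM in D8 cells (limma, adjusted p = 9.86e-06).

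Asns and Oplah, enzymes of asparagine synthesis and glutathione turnover, were among the 15 largest rises. Asns, asparagine synthetase, had 105 and 101 FPKM in D10 cells, against 45.3 and 44.4 FPKM in D8 cells, a log2 fold change of 1.18 ± 0.167 (SE; limma, adjusted p = 6.19e-04). It was the 1 called member among 22 genes of the integrated stress response, whose median was -0.23. Of the 22, 19 were below 0, beside 8407 of all 16439 genes. Atf4, the factor that drives that response, had 73.3 and 74.9 FPKM in D10 cells, against 82.4 and 82.2 FPKM in D8 cells, and was not called. Phgdh, the first enzyme of serine synthesis, had 44.8 and 47.5 FPKM in D10 cells, against 54.6 and 52.1 FPKM in D8 cells, and was not called. Oplah, the 5-oxoprolinase of glutathione turnover, had 22.9 and 24.7 FPKM in D10 cells, against 10.3 and 9.16 FPKM in D8 cells (limma, adjusted p = 8.62e-04).

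Other large falls were in genes of receptors, hormones and surface proteins. Agtr2, the angiotensin II receptor type 2, had 1.78 and 2.43 FPKM in D10 cells, against 31.99 and 32.3 FPKM in D8 cells, a log2 fold change of -3.42 ± 0.370 (SE; limma, adjusted p = 8.47e-05). The hormone gene Cck (cholecystokinin) had 1.56 and 2.08 FPKM in D10 cells, against 21.0 and 22.5 FPKM in D8 cells (limma, adjusted p = 3.66e-07). Tnfsf9, the ligand of a costimulatory receptor of T cells, had 4.19 and 4.09 FPKM in D10 cells, against 25.6 and 27.8 FPKM in D8 cells (limma, adjusted p = 9.17e-05). In each of them D10 cells kept a small part of the D8 level. The surface proteins Ly6g6c and Tm4sf1 were also among the 15 largest falls. The chemokine Ccl7 had 5.77 and 5.32 FPKM in D10 cells, against 34.5 and 31.1 FPKM in D8 cells (limma, adjusted p = 9.13e-07). Ccl2, the other lower member among 19 genes of chemokines and cytokine response, had 4.92 and 4.44 FPKM in D10 cells, against 15.9 and 14.9 FPKM in D8 cells (limma, adjusted p = 0.00504). Counted by symbol (Ccl, Cxcl, Cx3cl), a family picked after its values were seen, 5 of 19 chemokine genes were lower, and the other 3 were Ccl8, Ccl11 and Ccl12. Ccl8 had 15.2 and 14.3 FPKM in D10 cells, against 38.6 and 41.8 FPKM in D8 cells (limma, adjusted p = 2.79e-04). Ccl12 lost its call whichever library was left out (limma adjusted p up to 0.126). Krtdap, a secreted protein of keratinocytes, had 5.51 and 8.15 FPKM in D10 cells, against 33.3 and 40.3 FPKM in D8 cells (limma, adjusted p = 0.00637), a call lost without D10 replicate 1 or D8 replicate 2 (up to 0.0690). The gene of the microRNA precursor Mir34a was listed at 0 in both D10 libraries, against 182.7 and 182.5 FPKM in the D8 libraries, so no fold is given. It was also listed at 0 in both D6 libraries and in 1 of the 2 D12 libraries, and it lost its call whichever library was left out (limma adjusted p up to 0.187).

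Some genes known from other lineages, most of them low at D8, fell too. Of 12 listed neural markers 6 were tested, and 4 of these were lower: Stmn2, Tubb3, Nes and Ncam1. Tubb3, a neuronal tubulin, had 0.879 and 0.548 FPKM in D10 cells, against 3.44 and 3.15 FPKM in D8 cells (limma, adjusted p = 1.23e-04). Its mean was 12.6 FPKM in the D0 fibroblasts, 9.80 FPKM in iPSC and 9.34 FPKM in ESC, so in this series it was not particular to neural cells. Nes, the intermediate filament of neural progenitors, had 2.24 and 2.41 FPKM in D10 cells, against 7.16 and 6.74 FPKM in D8 cells (limma, adjusted p = 7.35e-04). Ncam1 lost its call without D8 replicate 2 at a log2 fold change of -0.97, and the neuronal marker Dcx was at 0 in all 4 libraries. Of 3 tested erythroid genes 2 were lower, the alpha globin copies Hba-a1 and Hba-a2, whose reads cannot be told apart. Hba-a1 had 0.511 and 0.821 FPKM in D10 cells, against 4.34 and 3.47 FPKM in D8 cells (limma, adjusted p = 7.35e-04). Of 12 trophoblast genes 2 were lower, Esx1, a homeobox gene of the placenta, with 0.803 and 1.01 FPKM in D10 cells, against 5.79 and 5.34 FPKM in D8 cells, and Tfap2c. Tff1 and Tff2, trefoil peptides of the stomach lining chosen after their values were seen, were lower as well. Tff1 had 4.096 and 5.17 FPKM in D10 cells, against 23.8 and 27.3 FPKM in D8 cells (limma, adjusted p = 4.92e-06). Tff2 had 1.63 and 1.90 FPKM in D10 cells, against 10.5 and 10.8 FPKM in D8 cells (limma, adjusted p = 1.61e-05).

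Lists of proliferation, translation and respiration held no called gene. Limma called 0 of 26 DNA replication genes, 0 of 24 mitosis genes, 0 of 24 ribosome biogenesis genes, 0 of 32 ribosomal protein genes and 0 of 25 nuclear respiratory chain genes, with 6, 1, 1, 2 and 0 of them at an unadjusted p under 0.05. Pcna, the sliding clamp of replication, had 81.8 and 75.8 FPKM in D10 cells, against 76.2 and 76.6 FPKM in D8 cells. Top2a, a topoisomerase that untangles chromosomes, had 75.7 and 75.5 FPKM in D10 cells, against 71.4 and 68.9 FPKM in D8 cells. Of 7 inhibitors of cyclin-dependent kinases 1 was lower, Cdkn2b (p15), with 5.79 and 6.27 FPKM in D10 cells, against 14.5 and 15.4 FPKM in D8 cells, a log2 fold change of -1.18 ± 0.158 (SE; limma, adjusted p = 4.01e-04). Its neighbour Cdkn2a had 15.7 and 16.7 FPKM in D10 cells, against 33.1 and 31.9 FPKM in D8 cells, and passed the adjusted p (limma, adjusted p = 6.83e-04) at a log2 fold change of -0.96. Cdkn1a (p21) had 66.8 and 72.5 FPKM in D10 cells, against 136 and 132 FPKM in D8 cells, and passed it too (limma, adjusted p = 0.0298) at -0.93. Both stood just under the 2-fold threshold. Of 20 p53 targets 2 were lower, beside 2.43% of all genes. A log2 fold change below 0 was seen in 19 of them, beside 8407 of all 16439 genes. Plk2, a stress-induced kinase, had 22.4 and 24.6 FPKM in D10 cells, against 55.9 and 51.0 FPKM in D8 cells (limma, adjusted p = 0.00125). The other, the cell death gene Pmaip1 (Noxa), lost its call whichever library was left out (limma adjusted p up to 0.0873).

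Glycolysis and hypoxia genes lay mostly below their D8 level, with few calls. Of 24 tested, 2 were lower, beside 2.43% of all genes. The log2 fold change was below 0 in 22, with a median of -0.54, beside 8407 of all 16439 genes below 0. Slc16a3, the lactate exporter MCT4, had 10.4 and 9.03 FPKM in D10 cells, against 25.05 and 29.4 FPKM in D8 cells (limma, adjusted p = 1.49e-04). Egln3, an oxygen sensor induced by hypoxia, had 11.4 and 12.14 FPKM in D10 cells, against 29.4 and 30.6 FPKM in D8 cells (limma, adjusted p = 2.78e-05). Without the fold threshold 11 were lower, beside 7.31% of all genes. Pkm, pyruvate kinase, was one of them with 274 and 299.7 FPKM in D10 cells, against 551 and 542 FPKM in D8 cells (limma, adjusted p = 8.76e-05; log2 fold change -0.93). Of 25 cholesterol genes limma called 0, with 9 at an unadjusted p under 0.05. Without the fold threshold 4 of them were higher and 0 lower, beside 3.16% and 7.31% of all genes. Of the 25, 19 had a log2 fold change above 0, beside 7754 of all 16439 genes.

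Transcripts of mitochondrial DNA differed by kind, a split noticed after the values were seen. Of 21 tRNA genes 11 were lower, with a median of -1.02. mt-Ti had 14.02 and 17.6 FPKM in D10 cells, against 50.5 and 50.7 FPKM in D8 cells (limma, adjusted p = 7.64e-04). mt-Ta had 30.8 and 38.9 FPKM in D10 cells, against 96.0 and 118 FPKM in D8 cells (limma, adjusted p = 0.00265). Of 10 tested protein-coding genes limma called 0, with 1 at an unadjusted p under 0.05 and a median of -0.04. The rRNA gene mt-Rnr1 had 217 and 215 FPKM in D10 cells, against 380.0 and 394 FPKM in D8 cells, and passed the adjusted p under 2-fold (limma, adjusted p = 0.00637). These tRNA genes are 65 to 75 bases long, shorter than the 150-base reads, and lie between other genes of the same long transcript. mt-Nd4l alone took 43.6% and 42.9% of the FPKM sum at D10, against 41.9% and 44.0% at D8, while mt-Nd2 was listed at 0 in all 4 libraries. The FPKM of a single mitochondrial gene is therefore uncertain.

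**Figure D5:**
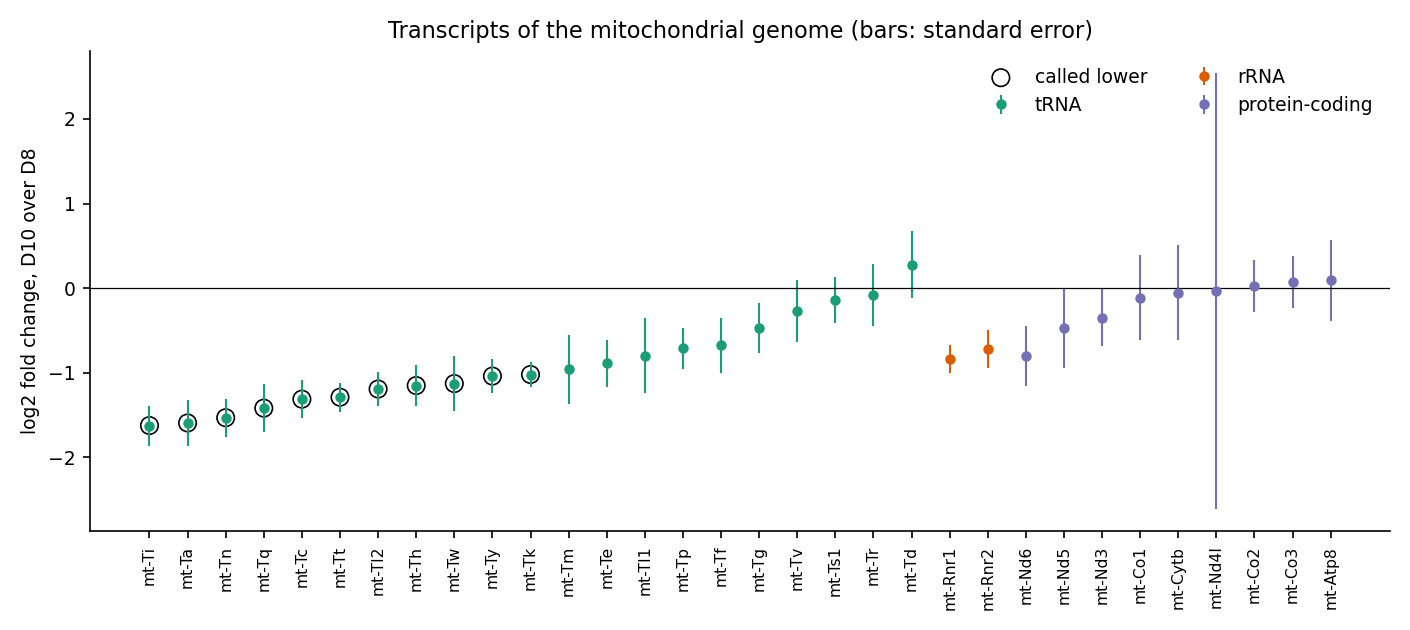
Log2 fold change of D10 over D8 with its standard error for the tested genes of mitochondrial DNA that were above 0 in at least 1 of the 4 libraries, as 21 tRNA, 2 rRNA and 9 protein-coding genes. The 11 ringed tRNA genes were called lower, and the log2 fold changes of the protein-coding genes run from -0.80 to 0.09, with a median over the 10 tested of -0.04.

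The called genes were also followed through days outside the contrast. The 400 lower genes had median levels of 18.4 and 17.7 FPKM in the D6 libraries, 8.21 and 7.96 FPKM at D8, 2.198 and 2.42 FPKM at D10, and 1.21 and 1.32 FPKM at D12. In the D0 fibroblasts their medians were 1.59 and 2.16 FPKM, below those at D8. The medians of all genes tested were also lower at D0, 1.71 and 2.47 FPKM, against 6.13 and 5.97 FPKM at D8. A D0 level below that at D8 was thus not particular to the 400 genes. By their medians the 400 genes were highest at D6, where all genes tested had medians of 5.09 and 4.86 FPKM. The 70 higher genes had medians of 0.184 and 0.221 FPKM at D6, 4.12 and 3.35 FPKM at D8, 10.01 and 10.9 FPKM at D10, and 22.3 and 22.6 FPKM at D12. The D8 and D10 medians describe the choice of the genes, and the D6 and D12 medians lay on the outer sides of them. In iPSC the median of the 70 was 0.871 and 0.962 FPKM, so it was lower in iPSC than at D12. Pdzk1, for one, with 14.8 and 15.6 FPKM at D10, had means of 26.8 FPKM at D12 and 1.46 FPKM in iPSC. Single genes did not all keep to the order of the medians. Of the 400 lower genes, 107 had a D12 mean above their D10 mean and 122 had a D6 mean below their D8 mean. Of the 70 higher genes, 23 had a D12 mean below their D10 mean and 10 had a D6 mean above their D8 mean. Apoa1, lower at D10, had a mean of 13.2 FPKM at D12 and 10.6 FPKM at D8. Hist1h1c, a linker histone gene and the 1 called member of 12 replication-dependent histone genes, had 3.17 and 3.90 FPKM in D10 cells, against 18.2 and 17.3 FPKM in D8 cells, and a D12 mean of 17.1 FPKM.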

How the data were processed

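Gene FPKM values were deposited per library by the authors. Per the submitters' processing notes, the tools named are fastp 0.20.1, HISAT2 2.2.1 and StringTie 2.0, with genome build mm10. Read counts were not used here, and the strand setting is not given in the sources used here. The deposited values cover 55401 Ensembl genes in 18 libraries, 2 in each of 9 groups. Symbols and coordinates came from GENCODE vM21 (GRCm38), which matched 55141 genes. Since FPKM values are not counts, log2(FPKM + 1) was fitted with limma 3.58.1 in R 4.3.3, with a mean for each group and all 18 libraries in the fit, which left 9 residual degrees of freedom, empirical Bayes without a trend, two-sided tests and Benjamini-Hochberg adjustment over the 16439 genes tested. The code was tested on simulated data.

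The genes described in the text, the 49 gene lists (904 symbols, 821 tested) and the families were chosen with earlier results of these data known. Named genes were the 15 largest and 15 smallest log2 fold changes among called genes with a mean of at least 5 FPKM over the 4 libraries, leaving out predicted-gene and RIKEN names, then up to 5 called members per list and direction, up to 3 abundant members not called, and a set of regulators and markers. Genes named beyond that rule, among them members of the collagen, metalloproteinase, IGF-binding protein, prostaglandin and trefoil families, the mitochondrial genes, Acta2, Fos, Snai1, Zeb2 and the further genes given as not called, were chosen after their values were seen. Promoters are RefSeq entries (GRCm38.p6), matched by symbol.

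Alternatives were 2 other pseudocounts, 2 filters, 3 scalings, a variance trend, 2 smaller sets of libraries, a replicate term, no fold threshold, a correction for exonic length and leaving out each of the 4 libraries. Replicate numbers were not taken to pair the samples in the main fit. Results for a few genes are not reported here.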

Additional observations from a re-analysis of the deposited data

How the results depend on the processing

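The pseudocount and the fold threshold moved the counts most. With a pseudocount of 0.1, 822 genes were called (156 higher, 666 lower), and with a pseudocount of 5, 124 (12 higher, 112 lower). Without the fold threshold 1722 passed (520 higher, 1202 lower). Leaving out 1 of the 4 libraries gave 391 to 418 calls, 68 to 80 of them higher and 316 to 350 lower, and kept 346 to 361 of the 470 calls. With the replicate number as a block 465 genes were called, 70 higher and 395 lower. Deviations of same-numbered D10 and D8 libraries had a correlation of -0.0612 across genes, which gives no sign that the numbers pair the samples. If the spread within a day is technical, this value cannot exclude a pairing. The remaining alternatives gave 412 to 502 calls, and no call of the 470 changed direction under any alternative. Of 5079 values that 318 described genes took under the alternatives, 4849 kept their direction and their side of the threshold, 208 no longer passed it, 22 passed it newly and 0 changed direction; 177 of these genes were not called to begin with. Low genes are limited by depth: at 0.0482 to 0.0608 FPKM for 1 read pair in 1 kb, differences among values near that level were not detectable. The labels give no batch, so no within-batch value can be given, and the feeding schedule cannot be told apart from the day.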

Other observations

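The next 4 called genes with roles in iron handling were picked after their values were seen and not drawn from a list, so they say nothing of iron genes as a group. Tfrc, the transferrin receptor that takes up iron, was lower with 14.4 and 14.3 FPKM in D10 cells, against 36.8 and 35.5 FPKM in D8 cells (limma, adjusted p = 9.86e-06). Aco1, the cytosolic aconitase that also acts as an iron-sensing RNA-binding protein, was higher with 40.7 and 40.3 FPKM in D10 cells, against 18.2 and 18.4 FPKM in D8 cells (limma, adjusted p = 0.00237). The other two, Cp and Lcn2, are secreted proteins. Cp (ceruloplasmin), a ferroxidase of iron export, was higher with 4.23 and 5.09 FPKM in D10 cells, against 1.15 and 1.27 FPKM in D8 cells (limma, adjusted p = 1.20e-05). Lcn2, a secreted protein that binds iron carriers of bacteria, was higher with 8.84 and 9.10 FPKM in D10 cells, against 1.11 and 0.716 FPKM in D8 cells (limma, adjusted p = 9.13e-07).

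Further genes that rose were picked in the same way. Klb, the co-receptor of endocrine FGFs, had 18.96 and 17.997 FPKM in D10 cells, against 8.99 and 7.90 FPKM in D8 cells (limma, adjusted p = 1.95e-05), a call lost without D8 replicate 2 at a log2 fold change of 0.96. Vnn1, the pantetheinase vanin, had 21.2 and 19.9 FPKM in D10 cells, against 9.25 and 9.52 FPKM in D8 cells (limma, adjusted p = 8.06e-06). Saa3, an acute phase protein, had 18.2 and 17.9 FPKM in D10 cells, against 7.62 and 8.14 FPKM in D8 cells (limma, adjusted p = 0.00361).

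Of the 70 higher genes, 9 were annotated as TEC, loci that still await experimental evidence. One of them, Gm44379, had 36.5 and 35.2 FPKM in D10 cells, against 17.0 and 15.7 FPKM in D8 cells, and a mean of 133 FPKM at D12. Its transcript of 164 bases shares a stretch of at least 50 bases with transcripts of other genes. Of the resulting 13 genes, itself included, 11 were tested, 6 were higher and 5 were not called. Since 4 of the 13 are identical over their whole length, reads cannot be assigned among them, and these rises are not independent of each other.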
